A study of Mus musculus with 12 samples.

Results

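The genes described here are 36 ribosome biogenesis factors of mouse liver, chosen by name from the 16346 genes of the deposited table and followed across 6 groups of genotype and diet. They were picked by name as known nucleolar and ribosome assembly genes. All 36 were found in the table under 1 Ensembl identifier each, and 35 of them had a mean of at least 10 and were tested. The exception was *Nolc1*, which encodes the nucleolar phosphoprotein Nopp140. It was listed at 0 in 9 of the 12 libraries and at 9.64, 16.0 and 9.84 in the others.

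Liver RNA was sequenced from C57BL6J mice aged 12 weeks, with 2 libraries in each of 6 groups. Control mice were *Med13* fl/fl, and MED13-LKO mice also carried *Albumin*-Cre, which is active in hepatocytes. Every mouse thus carried the floxed *Med13* allele, and because no group had Cre alone, Cre and the loss of *Med13* cannot be told apart. Within each genotype, 1 group had fasted overnight for 16 h, and 2 groups were fed again for 4 h with normal chow and water holding 30% sucrose or 30% fructose. *Med13* RNA ran from 578 to 796 normalized counts in control libraries and from 646 to 1055 in those labelled MED13-LKO, so it was not lower there. Counts per gene do not show which part of a transcript was read, so they cannot settle the label. In Western blots of liver nuclear protein, the paper reports that MED13 and MED12 were almost absent in MED13-LKO mice. The deposited values are normalized counts per gene, which summed to 21062211 to 24152885 in control libraries and to 17309215 to 18738563 in libraries labelled MED13-LKO. The sums thus differ between genotypes. The 75th percentiles over all genes overlapped, at 540 to 546 in control libraries and 533 to 547 in the others. The 100 highest genes of each library held 49.3% to 53.5% of the sum in control libraries and 44.7% to 46.4% in the others. Results that turn when each library is scaled to the same sum, a setting chosen after seeing the data, are given on both scales. The members held 0.0814% to 0.110% of that sum in control libraries and 0.0939% to 0.110% in the others. Whether a gene was lower because fewer cells of a type were present or because each cell held less RNA cannot be told apart in whole liver.

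A cell makes ribosomes in the nucleolus, where RNA polymerase I copies the ribosomal DNA into 1 long precursor. Small nucleolar ribonucleoproteins (snoRNPs) modify that precursor, a large complex called the small subunit processome folds and cuts its first part, and further sets of factors bring the small (40S) and large (60S) subunits to maturity before export. Liver lowers its protein and RNA content in fasting and rebuilds it after a meal, and the transcription factor MYC, which binds the DNA word CACGTG, is known as an activator of many genes of this pathway. The members fall into 7 roles, with 4 genes for RNA polymerase I and its regulators, 5 for abundant nucleolar proteins, 4 each for the box C/D snoRNP, the box H/ACA snoRNP and late 40S maturation, 8 for the small subunit processome and 7 for 60S assembly.

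*Npm1*, the histone chaperone nucleophosmin, had the highest level per length, with a median of 2158 normalized counts per kilobase of its longest coding transcript in control libraries. *Nop10*, the smallest H/ACA protein, followed at 764 and *Fbl*, the 2′-O-methyltransferase fibrillarin, at 502 on the same scale. Some of these values are uncertain because sequence is shared with other genes. The share of 31-base subsequences also found in another gene was 32.4% for *Pes1*, 29.2% for *Npm1*, 22.4% for *Nop56*, 20.7% for *Fbl*, 15.8% for *Rrs1* and 11.7% for *Wdr12*, and at most 5.95% for the other members. In *Fbl* 20.7% of them also match the opposite strand of other genes, most of all *Tulp4*. *Tsr1* overlaps *Srr* on the opposite strand over 28.8% of its subsequences, and since strand is not stated for the counting, reads of that stretch cannot be told apart.

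The libraries of 1 group stood apart in these genes. In fructose-fed controls, replicate 1 was higher than replicate 2 in 33 of 35 members, with a median log2 difference of 0.41 against 0.00 over all genes tested. *Utp20* and *Utp18* were the exceptions. *Pck1*, a gluconeogenic gene that fasting induces, was at 7416 in replicate 1 and 48079 in replicate 2, beside 82070 and 105586 in fasted controls and 4235 and 9921 in sucrose-fed controls. Replicate 2 thus lay nearer to the fasted libraries in *Pck1*, and counts of members called are given with and without each of these libraries. Leaving out a library also changes the spread pooled over all groups, so counts can move even in comparisons that do not use it. No share of all genes stands beside the counts without a library. They show only how far calls depend on 1 library, not a trait of the members.

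**Figure D1:**
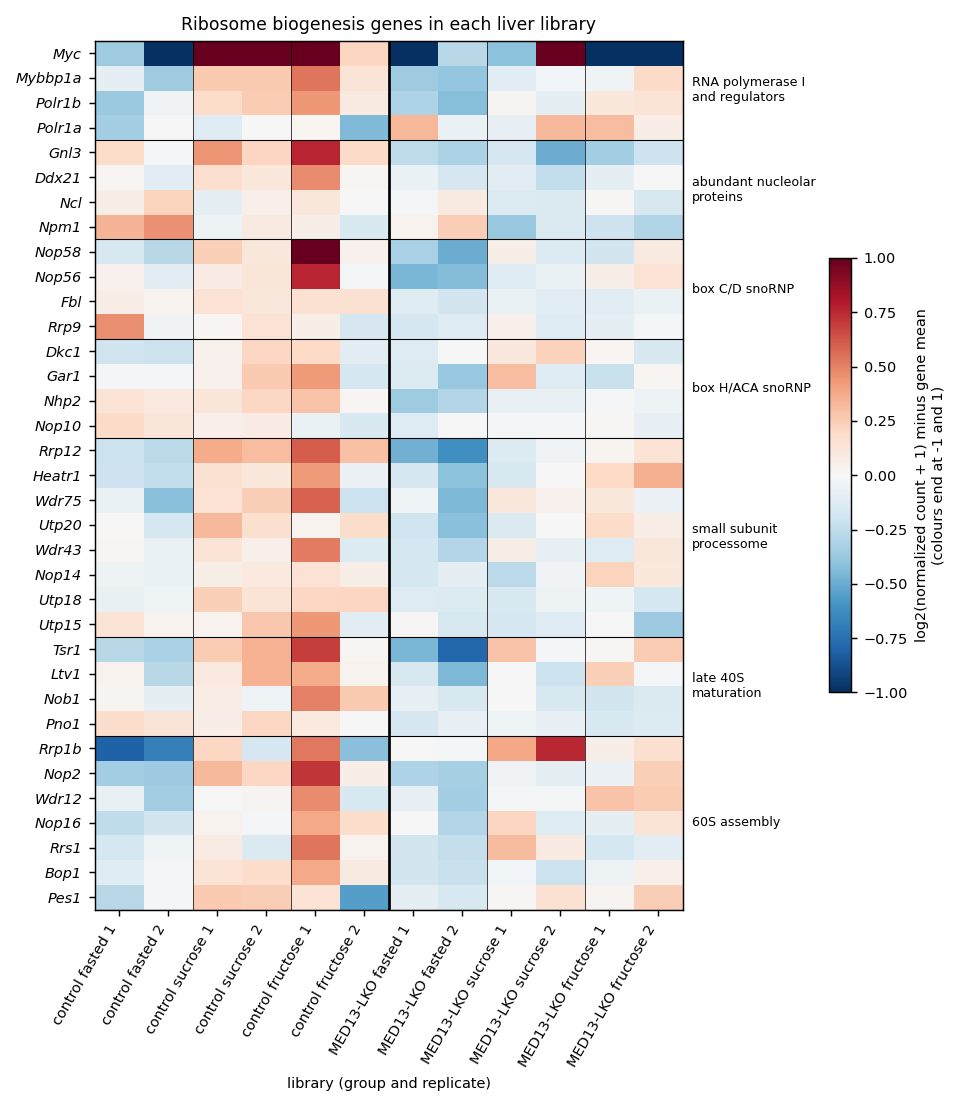
Heat map of the 35 tested members (rows, grouped by role) in the 12 libraries (columns, by group and replicate). Colour is log2(normalized count + 1) minus the gene's mean over all libraries, ending at -1 and 1. Red cells gather in the refed control libraries, most of all in replicate 1 of the fructose-fed controls, where 34 of 35 members lay above their own mean, and blue cells, on the scale as deposited, in the fasted libraries labelled MED13-LKO, where 5 and 2 members did.

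The first comparison asked which factors differed between refed and fasted liver, averaged over both sugars and both genotypes. Per the paper's methods, fasted mice were killed earlier in the day than refed ones. No library came from mice fed chow with plain water. The meal, the sugar water and the hour of the day thus cannot be told apart. In refed liver 9 of 35 members rose and 1 fell. That was 25.7% of the members rising and 2.86% falling, against 10.7% and 11.0% of all 12366 genes tested (adjusted p under 0.05, limma). The risers were *Myc*, *Tsr1*, *Rrp12*, *Rrp1b*, *Nop2*, *Mybbp1a*, *Polr1b*, *Heatr1* and *Utp20*, and the gene that fell was *Npm1*. The estimate was above 0 in 29 of 35, and its median was 0.20 on the log2 scale, against -0.01 over all genes tested. With equal library sums 22 members rose and 1 (*Npm1*) fell, beside 2361 and 712 of all genes, and the medians were 0.31 and 0.10. In 21 of 35 members the estimate was above 0 in each of the 4 single comparisons of a sugar with the fasted state, and in *Ncl* and *Npm1* it was below 0 in each. Both sugars are compared with the same fasted libraries, so these 4 are not independent. The share of all genes with the same sign in all 4 was not counted, so this is not read as a trait of the members. All 8 refed libraries lay above all 4 fasted ones in *Heatr1*, *Rrp12*, *Tsr1* and *Nop2*, which is 4 of 35 members beside 4.01% of all genes, and no member showed the opposite, beside 4.79%. The count of 10 calls was 22 without replicate 2 of the fructose-fed controls, 11 without replicate 1 of that group and 6 without replicate 2 of the fasted controls.

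Among RNA polymerase I and its regulators, 3 of 4 rose. *Myc* (chromosome 15, 61985391 to 61990374 on GRCm38) had 67.7 and 33.1 normalized counts in fasted controls, 323 and 269 with sucrose and 260 and 101 with fructose. Under the MED13-LKO label its fasted libraries had 30.6 and 71.7, its sucrose libraries 65.3 and 250 and its fructose libraries 31.1 and 31.3. All 4 refed control libraries were thus above the fasted ones, whereas of the refed libraries labelled MED13-LKO only replicate 2 of the sucrose group was. The average rise was 2.47-fold, a log2 fold change of 1.31 (SE 0.40, adjusted p = 0.0428, limma). This call was lost on leaving out any 1 of 8 libraries (adjusted p up to 0.168). It held only without replicate 1 of the fasted controls, replicate 2 of the fructose-fed controls, or replicate 2 of the fasted or replicate 1 of the sucrose group labelled MED13-LKO.

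*Polr1b*, the second-largest subunit of RNA polymerase I, was at 247 and 311 in fasted controls, 363 and 381 with sucrose and 430 and 339 with fructose. Under the MED13-LKO label the diets, taken alike, gave 257 and 237, 326 and 297, and 343 and 351. Every refed library exceeded the fasted ones of its genotype, but across genotypes they overlapped, since the refed value of 297 lay below the highest fasted control. The rise was 0.43 on the log2 scale (SE 0.09, adjusted p = 0.00895, limma).

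*Polr1a*, the largest subunit, did not move with it. Its values were 207 and 263 in fasted controls, 240 and 262 with sucrose and 265 and 192 with fructose, then 330 and 250, 247 and 327, and 324 and 275 under the MED13-LKO label. The diets overlapped in both genotypes, and the log2 difference was 0.02 (95% interval -0.27 to 0.32, adjusted p = 0.916, limma).

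*Mybbp1a* encodes a nucleolar MYB-binding protein that represses RNA polymerase I. It was at 886 and 741 in fasted controls, 1141 and 1141 with sucrose and 1373 and 1036 with fructose, and at 743 and 726, 878 and 934, and 927 and 1082 under the MED13-LKO label. Within each genotype all refed libraries were above the fasted ones, and the rise was 0.45 (SE 0.09, adjusted p = 0.00499, limma).

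Of the small subunit processome, 3 of 8 members rose and none fell. *Rrp12* (chromosome 19, 41862851 to 41896173), a HEAT-repeat protein of pre-ribosomes, was at 212 and 204 in fasted controls, 319 and 305 with sucrose and 375 and 302 with fructose. It was at 176 and 161, 223 and 240, and 251 and 270 under the MED13-LKO label. The lowest refed library, 223, was above the highest fasted one, 212. Its log2 rise of 0.59 had the smallest adjusted p of the members (SE 0.08, adjusted p = 0.000953, limma), and leaving out any 1 library kept it called, at 0.55 to 0.63. *Heatr1*, the homologue of yeast Utp10, rose by 0.39 and *Utp20*, a scaffold protein, by 0.30 (adjusted p = 0.0167 and 0.0163, limma). Both calls were lost without replicate 2 of the fasted controls (adjusted p = 0.0635 and 0.0783) and without replicate 2 of the fasted group labelled MED13-LKO (adjusted p = 0.0774 and 0.0761). Of the other 5 processome members, *Wdr75* had the largest estimate, 0.37, and *Utp15* the lowest, -0.01.

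In late 40S maturation 1 of 4 members rose. *Tsr1*, a GTPase-like protein that keeps the immature small subunit from starting translation, was at 477 and 460 in fasted controls, 690 and 735 with sucrose and 934 and 586 with fructose. Under the MED13-LKO label it was at 421 and 335, 705 and 570, and 582 and 689. The lowest refed library, 570, lay above the highest fasted one, and the rise was 0.69 (SE 0.13, adjusted p = 0.00407, limma). *Nob1*, the nuclease that makes the final cut of the small subunit RNA, and its partner *Pno1* had estimates of 0.12 and -0.02, neither called.

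All 7 members of 60S assembly had estimates above 0, from 0.20 to 0.56, and 2 of them were called. *Nop2*, a methyltransferase of the large subunit RNA, was at 344 and 339 in fasted controls, 545 and 502 with sucrose and 716 and 456 with fructose, and at 352 and 346, 425 and 407, and 419 and 515 under the MED13-LKO label. Refed and fasted libraries did not overlap, and the rise was 0.50 (SE 0.11, adjusted p = 0.0114, limma). *Rrp1b*, a nucleolar protein that binds protein phosphatase 1, was the lowest-expressed of the tested members per length. It had 45.2 and 49.6 normalized counts in fasted controls, 92.7 and 71.1 with sucrose and 116 and 59.7 with fructose, then 80.2 and 79.3, 105 and 136, and 83.6 and 89.4 under the MED13-LKO label. The fasted libraries of the 2 genotypes differed, but within each genotype refed values were above fasted ones, by 0.56 on average (SE 0.18, adjusted p = 0.0487, limma). That call held only without 1 or the other fructose-fed control library and was lost on leaving out any of the other 10 (adjusted p up to 0.131). *Bop1*, *Pes1* and *Wdr12*, which form 1 complex, had estimates of 0.20, 0.20 and 0.32, none called.

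No member rose among the snoRNP proteins or the abundant nucleolar proteins on the scale as deposited, whereas with equal library sums 3 of 4 box C/D and 2 of 4 box H/ACA members did. At that scaling more of all genes rose as well. None of the 4 box C/D members was called, although *Nop58* and *Nop56*, the paired core proteins, had estimates of 0.47 and 0.35 (adjusted p = 0.0565 and 0.0608, limma). *Fbl* was at 574 and 561 in fasted controls, 607 and 594 with sucrose and 612 and 610 with fructose, and at 504 and 482, 525 and 508, and 508 and 524 under the MED13-LKO label. Its refed libraries exceeded the fasted ones of their genotype by 0.08 on the log2 scale (95% interval -0.03 to 0.19), and with equal library sums it was called at 0.19 (adjusted p = 0.0405, limma). None of the 4 box H/ACA members was called either, and their estimates ran from -0.07 for *Nop10* to 0.20 for *Dkc1*, the pseudouridine synthase.

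*Npm1* (chromosome 11, 33152287 to 33163206) went the other way. It was at 4245 and 4594 in fasted controls, 3228 and 3570 with sucrose and 3479 and 3012 with fructose, and at 3435 and 3980, 2580 and 3024, and 2893 and 2724 under the MED13-LKO label. In each genotype all refed libraries were below both fasted ones. It fell by 0.41 on the log2 scale (SE 0.07, adjusted p = 0.00289, limma), and leaving out any 1 library kept that call. *Ncl*, which encodes nucleolin, was at 1512 and 1698 in fasted controls, 1366 and 1512 with sucrose and 1575 and 1462 with fructose, and at 1436 and 1549, 1327 and 1314, and 1468 and 1305 under the MED13-LKO label. Its difference of -0.13 was not called (adjusted p = 0.147, limma). *Gnl3*, the GTPase nucleostemin, and *Ddx21*, an RNA helicase, had estimates of 0.15 and 0.12, neither called.

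**Figure D2:**
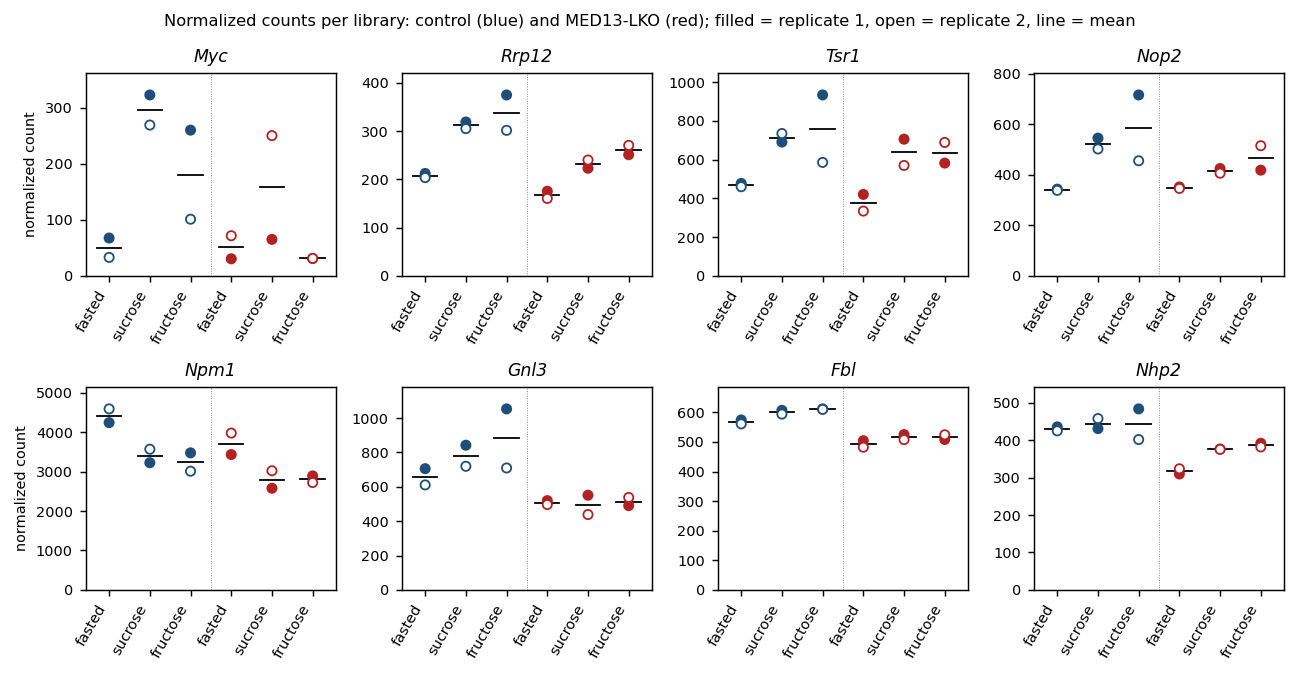
Normalized counts (linear axis from 0) of 8 members in every library, by diet within control (blue) and MED13-LKO (red) libraries. Filled circles are replicate 1, open circles replicate 2 and lines the mean of 2. *Rrp12*, *Tsr1* and *Nop2* lie higher in all refed libraries than in any fasted one, *Npm1* lies lower in the refed libraries of each genotype, and *Gnl3*, *Fbl* and *Nhp2* lie lower in every MED13-LKO library than in any control library, on the scale as deposited (with equal library sums the averaged genotype difference stays below 0 in *Gnl3* alone of these 3).

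Because several of the risers are held to be MYC targets, their promoters were searched for the word CACGTG, called an E-box, which reads the same on both strands. RefSeq windows on GRCm38.p6 from 250 bases before to 50 after a gene's start were at hand for 30 of the 36 members. *Myc*, *Npm1*, *Fbl*, *Rrp12*, *Bop1* and *Rrs1* were not among them. The word stood in 9 of 30 members, or 30.0%, against 8.09% of the 27025 genes with a window, 11.6% of those that were also tested and 17.7% of the wider list of ribosome biogenesis genes described further on. It stood in 4 of the 7 risers with a window. The 30 bases around the word are shown for these 9 genes, 5′ to 3′ on the gene's own strand with the word in capitals, since it is what they share beyond their function.
*Nop2* (chr6:125131811-125131840, + strand): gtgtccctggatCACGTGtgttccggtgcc
*Tsr1* (chr11:74898092-74898121, + strand): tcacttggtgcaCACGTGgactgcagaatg
*Mybbp1a* (chr11:72441347-72441376, + strand): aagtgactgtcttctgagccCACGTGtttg
*Utp20* (chr10:88826765-88826794, - strand): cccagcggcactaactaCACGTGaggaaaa
*Ltv1* (chr10:13193092-13193121, - strand): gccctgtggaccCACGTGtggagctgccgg
*Wdr43* (chr17:71616220-71616249, + strand): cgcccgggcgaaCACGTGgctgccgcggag
*Pes1* (chr11:3963965-3963994, + strand): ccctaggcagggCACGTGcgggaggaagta
*Pno1* (chr11:17211540-17211569, - strand): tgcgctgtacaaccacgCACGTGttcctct
*Utp18* (chr11:93885769-93885798, - strand): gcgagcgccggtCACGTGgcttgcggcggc

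The first base of the word lay 60 bases before the start in *Nop2* and 20 before it in *Utp18*, and between positions 3 and 41 after it in the other 7. The first 4 sequences belong to genes that rose in refed liver. The 9 genes with the word had a median feeding difference of 0.30 on the log2 scale, and the 20 tested members with a window that lacked it a median of 0.18. The ranges, -0.02 to 0.69 and -0.13 to 0.56, overlapped. *Polr1b*, *Heatr1* and *Rrp1b* rose and do not have the word in their windows. On either strand, the ETS word CCGGAAGT stood in 5 of 30 members (16.7%), against 4.31% of all genes with a window, 8.93% of those also tested and 30.1% of the wider list. CGCATGCG, the core of an NRF1 site, stood in 2 of 30 (6.67%, against 2.07% of all and 4.27% of tested genes), CTCGCGAG in 1 (3.33%, against 1.04% and 2.11%) and TATAAA in 2 (6.67%, against 15.7% and 9.3%). No searched word contains another. No binding was measured here, and a match is only a description of the letters.

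Each sugar was also compared with the fasted state within each genotype, with 2 libraries on each side. In sucrose-fed controls *Myc* rose by 2.61 on the log2 scale and *Rrp12* by 0.58 (adjusted p = 0.0372 and 0.0254, limma), which is 2 of 35 members beside 8.57% of all genes in either direction. In 25 of 35 members both sucrose-fed control libraries exceeded both fasted ones, beside 27.0% of all genes. The count of calls was 0 without any 1 of the 4 libraries compared, 1 without either fructose library labelled MED13-LKO, and 5 or 6 without replicate 1 or 2 of the fructose-fed controls.

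In fructose-fed controls 4 members were called, beside 5.6% of all genes. *Rrp12* rose by 0.69, *Nop2* by 0.74 and *Mybbp1a* by 0.56, and *Npm1* fell by 0.45 (adjusted p = 0.0181, 0.046, 0.047 and 0.049, limma). Both refed libraries were above both fasted ones in 19 of 35 members, beside 24.3% of all genes. The count was 15 without replicate 2 of the fructose-fed controls, 0 without replicate 1 of that group or either fasted control library, and 1 without any 1 of the other 8 libraries.

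Under the MED13-LKO label, no member was called with sucrose, beside 5.71% of all genes (smallest adjusted p = 0.0621 for *Tsr1*, limma). At an unadjusted p under 0.05 there were 6, and both refed libraries were above both fasted ones in 21 of 35, beside 27.8%. The count was 3 without either fructose-fed control library. With fructose, *Rrp12* alone rose, by 0.63 (adjusted p = 0.0238, limma), beside 6.53% of all genes called, and both refed libraries were above both fasted ones in 20 of 35 members, beside 27.0%. The count was 7 or 8 without replicate 1 or 2 of the fructose-fed controls and 0 without any 1 of the 4 libraries compared.

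**Figure D3:**
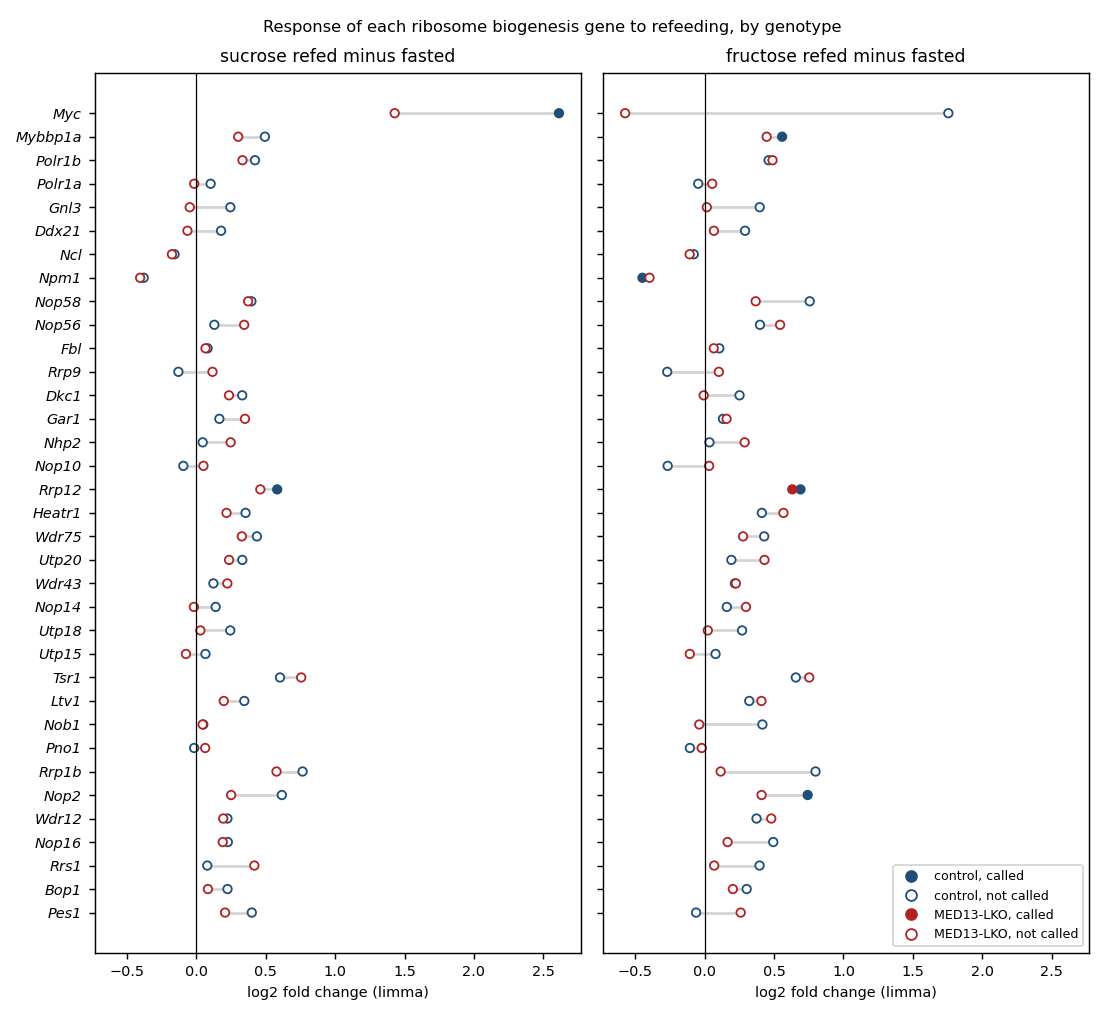
Log2 fold change (limma) of each member with sucrose (left) and fructose (right) against the fasted state, in control (blue) and MED13-LKO (red) libraries. Filled circles passed an adjusted p of 0.05, and grey lines join the genotypes. Most pairs lie to the right of 0 and near each other, *Npm1* lies between -0.45 and -0.38 in all 4 comparisons, and *Myc* has the widest gap, 1.76 in controls against -0.57 under the MED13-LKO label with fructose.

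Whether these responses differed between genotypes was tested as an interaction. None of 35 members was called for sucrose, fructose or their average, beside 0.146%, 0.0243% and 0.0404% of all genes, and at an unadjusted p under 0.05 there were 0, 3 and 0. The widest difference was that of *Myc*, whose fructose response was lower under the MED13-LKO label by -2.33 on the log2 scale (95% interval -4.39 to -0.27, adjusted p = 0.488, limma). *Nop10* (0.30) and *Nob1* (-0.45) were the other members below an unadjusted 0.05. For the average of both sugars, the interval of the difference ran from -3.54 to 0.03 for *Myc*, from -0.45 to 0.27 for *Rrp12*, from -0.44 to 0.69 for *Tsr1* and from -0.30 to 0.32 for *Npm1*.

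The sugars were compared with each other in each genotype. No member was called in either, beside 0.0404% of all genes in each, and 2 in control and 3 in libraries labelled MED13-LKO had an unadjusted p under 0.05. In controls those were *Nob1*, with a fructose minus sucrose difference of 0.37 (95% interval 0.07 to 0.67), and *Pes1*, with -0.46 (-0.89 to -0.03). Under the MED13-LKO label they were *Myc* (-2.00, interval -3.46 to -0.54), *Nop14* (0.32, interval 0.08 to 0.56) and *Heatr1* (0.35, interval 0.01 to 0.69). Without 1 library, at most 1 member was called in controls and none under the MED13-LKO label.

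The second main comparison set the libraries labelled MED13-LKO against the controls, averaged over the 3 diets. On the scale as deposited 10 of 35 members fell and none rose, whereas with equal library sums 1 fell (*Gnl3*) and 10 rose. The first was 28.6% falling, against 13.2% of all genes tested falling and 12.1% rising. The members that fell were *Myc*, *Gnl3*, *Rrp12*, *Nhp2*, *Npm1*, *Nob1*, *Utp18*, *Pno1*, *Fbl* and *Bop1*, spread over all 7 roles. The estimate was below 0 in 30 of 35 members, with a median of -0.20 against 0.01 over all genes tested. With equal library sums the estimate was above 0 in 31 of 35 and the median 0.12, against 0.32 over all genes, of which 7109 rose and 405 fell. The direction of the members thus turned. Scaling shifts all genes of a library nearly alike, so the gap between the 2 medians stays nearly the same by construction. That it is seen on both scales is therefore no second support. As deposited, 22 of 35 were below 0 in each of the 3 diets, and the share of all genes that were was not counted. All 6 libraries labelled MED13-LKO lay below all 6 controls in *Gnl3*, *Fbl*, *Nhp2* and *Pno1*, which is 4 of 35 beside 4.93% of all genes. The opposite was seen in no member, beside 3.92%. *Myc*, *Rrp12* and *Npm1* were called in both averages. The count of 10 was 18 without replicate 2 of the fructose-fed controls, and 6 without replicate 2 of the sucrose-fed controls or replicate 1 of either the fasted or the sucrose group labelled MED13-LKO. Without replicate 1 of the fructose-fed controls, 7 fell and 1 rose.

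**Figure D4:**
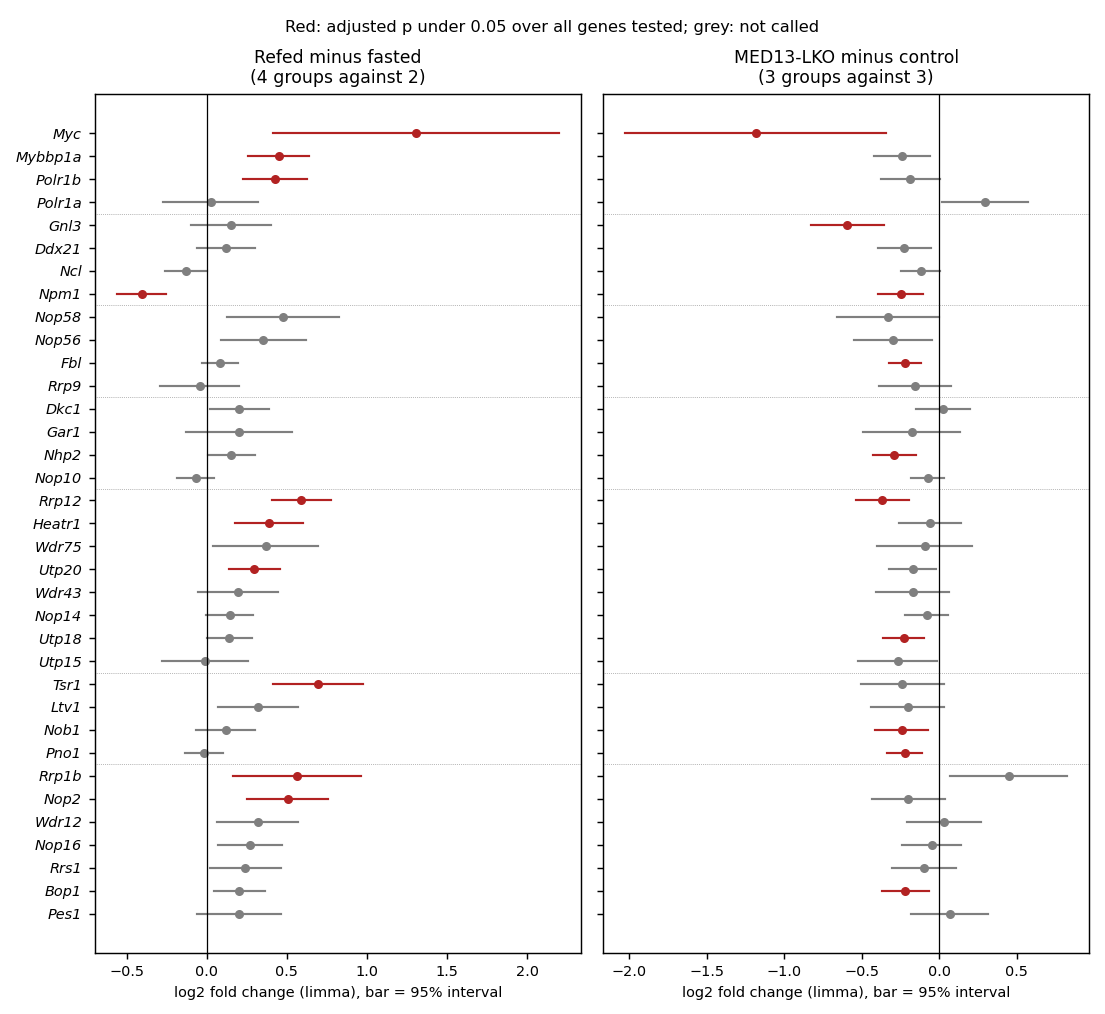
Log2 fold changes (limma) of the 35 tested members, as refed minus fasted over 4 against 2 groups (left) and as MED13-LKO minus control over 3 against 3 groups (right), with 95% intervals as bars. Red marks an adjusted p under 0.05 over all genes tested and dotted lines divide the roles. On the left 9 members are red above 0 and *Npm1* is red below it, and on the right 10 are red, all below 0, of which 7 have estimates above 0 with equal library sums.

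*Myc* had the largest difference, -1.18 on the log2 scale (SE 0.38, adjusted p = 0.0445, limma). From the values above, the genotypes overlapped in fasted mice, where the difference was -0.01, and were apart in both refed states, by -1.20 (sucrose, adjusted p = 0.336, limma) and -2.34 (fructose, adjusted p = 0.0588, limma). The averaged call was lost on leaving out any 1 of 8 libraries (adjusted p up to 0.111). It held without replicate 2 of the fasted or fructose-fed controls, or of the fasted or sucrose group labelled MED13-LKO.

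*Gnl3* (chromosome 14, 31012433 to 31019152), whose product shuttles between nucleolus and nucleoplasm and takes part in large subunit assembly, was next. It was at 705 and 611 in fasted controls, 842 and 719 with sucrose and 1053 and 710 with fructose, against 520 and 497, 551 and 438, and 490 and 538 under the MED13-LKO label. The highest value under that label, 551, was below the lowest control, 611. It fell by 0.59 on the log2 scale (SE 0.11, adjusted p = 0.00296, limma) and stayed called without any 1 library, at -0.69 to -0.50.

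*Nhp2*, a core protein of the H/ACA snoRNP, was at 435 and 425 in fasted controls, 431 and 458 with sucrose and 483 and 402 with fructose. Under the MED13-LKO label it was at 310 and 323, 376 and 375, and 392 and 382. Every value under that label was below every control, the fasted ones farthest, and the fall was 0.29 (SE 0.06, adjusted p = 0.00807, limma). *Rrp12* fell by 0.37 (SE 0.08, adjusted p = 0.0067, limma), and its controls were higher than the libraries labelled MED13-LKO within each diet without overlap. *Fbl* fell by 0.22 and *Pno1* by 0.22 (adjusted p = 0.0078 and 0.0097, limma). The calls of *Nhp2*, *Rrp12*, *Fbl* and *Pno1* also stayed without any 1 library.

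With equal library sums *Gnl3* was at -0.28 (adjusted p = 0.0448, limma), *Myc* at -0.87 and *Rrp12* at -0.05, neither called, and *Nhp2*, *Fbl* and *Pno1* were at 0.03, 0.09 and 0.09.

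The other 4 calls were closer to the threshold, and with equal library sums all 4 had estimates above 0. *Npm1* fell by 0.25, *Nob1* by 0.24, *Utp18* by 0.23 and *Bop1* by 0.22 (adjusted p = 0.0202, 0.0445, 0.0174 and 0.0398, limma). Of the 12 fits that each leave out 1 library, the call of *Npm1* was lost in 5, of *Utp18* in 1, of *Bop1* in 10 and of *Nob1* in 11, with adjusted p up to 0.0596, 0.0545, 0.108 and 0.115. For *Npm1* those libraries were replicate 2 of the fasted and of the sucrose-fed controls, and replicate 1 of the fasted, replicate 1 of the sucrose and replicate 2 of the fructose group labelled MED13-LKO. For *Utp18* it was replicate 1 of the sucrose group labelled MED13-LKO. *Bop1* stayed called without that library and without replicate 2 of the fructose-fed controls, and *Nob1* without the latter alone.

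Against the other members, *Rrp1b* and *Polr1a* had estimates above 0, of 0.45 and 0.29 (adjusted p = 0.0801 and 0.116, limma), and *Rrp1b* was higher under the MED13-LKO label in every library of the fasted and sucrose groups. *Dkc1*, *Wdr12* and *Pes1* were the other estimates above 0, at 0.02, 0.03 and 0.07. *Ncl* was at -0.12 and *Polr1b* at -0.19, neither called. With equal library sums *Rrp1b*, *Polr1a*, *Pes1*, *Wdr12*, *Dkc1* and *Ncl* rose, at 0.76, 0.61, 0.38, 0.35, 0.34 and 0.20. Their adjusted p-values were 0.00296, 0.00145, 0.0083, 0.0148, 0.0032 and 0.0085 (limma). *Nop16*, *Heatr1*, *Nop10* and *Nop14* also rose then, at 0.27, 0.26, 0.24 and 0.24, and *Polr1b* was at 0.13, not called.

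Within a single diet few members were called. With equal library sums 3 rose in fasted mice, 1 with sucrose and 4 with fructose, where 1 fell. No share of all genes stands beside these counts, and in the average over diets most of all genes rose at that scaling. These rises thus cannot be told apart from that general shift. The values that follow are on the scale as deposited. *Nhp2* fell in fasted mice by 0.44 (adjusted p = 0.034, limma), 1 of 35 members beside 8.98% of all genes, and both libraries labelled MED13-LKO were below both controls in 19 of 35, beside 28.1%. With sucrose none was called, beside 6.03% of all genes (10 at an unadjusted p under 0.05, smallest adjusted p = 0.0639 for *Gnl3*, limma), while 25 of 35 were lower without overlap, beside 27.2%. With fructose *Gnl3* fell by 0.75 and *Nob1* by 0.54 (adjusted p = 0.0353 and 0.0369, limma), beside 7.69% of all genes called, and 13 of 35 were lower without overlap, beside 25.2%. The fructose count was 9 without replicate 2 of the fructose-fed controls, and without replicate 1 of that group no member fell and 1 rose. It was also 0 without replicate 1 of the fasted controls or any 1 of the fasted or fructose libraries labelled MED13-LKO, and 1 without replicate 2 of the fasted controls. The fasted count was 0 without any 1 of the 4 fasted libraries or either sucrose library labelled MED13-LKO, and 2 without either fructose-fed control.

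Markers of liver cell types moved with genotype as well, beside 13.2% of all genes falling and 12.1% rising on the scale as deposited. The summed level of 6 hepatocyte markers ran from 2377601 to 3118861 normalized counts in controls and from 1793393 to 2190175 in libraries labelled MED13-LKO, and 5 of the 6 fell (median -0.44 on the log2 scale). Of 6 Kupffer cell markers 2 rose, and their sum ran from 2972 to 4147 and from 4031 to 5360. Of 6 sinusoidal endothelial markers 3 rose (sums 3464 to 4115 and 3956 to 5485), and of 6 stellate cell markers 3 fell (5341 to 6434 and 4842 to 5590). Of 4 cholangiocyte markers 1 fell (666 to 876 and 534 to 849), of 4 tested markers of cycling cells 1 rose (65.0 to 136 and 108 to 176 over 6 markers), and the 1 leukocyte marker of 6 that could be tested rose (177 to 262 and 228 to 365). With equal library sums 1 of the 6 hepatocyte markers fell (median -0.12) and all 6 Kupffer cell and all 6 endothelial markers rose. Most of all genes tested rose at that scaling too. No marker was at 0 in all libraries. With feeding, on the scale as deposited, 2 of 6 hepatocyte and 2 of 6 endothelial markers fell, and stellate markers split with 1 higher and 1 lower. No marker of the other lists was called, beside 10.7% of all genes rising and 11.0% falling. With equal library sums the cholangiocyte markers *Sox9* and *Spp1* rose with feeding, at 0.85 and 0.36 (adjusted p = 0.0429 and 0.0498, limma). The part of these shifts in the values of the members was not tested.

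MYC acts with MAX and is opposed by the MXD proteins, so 12 genes of that network were examined, of which 11 were tested. In refed liver 1 rose and 2 fell, beside 10.7% and 11.0% of all genes. *Mxd1*, a MAX-binding repressor, fell by 1.03 on the log2 scale, *Mlxip*, a glucose-sensing relative of ChREBP, fell by 0.66 and its partner *Mlx* rose by 0.48 (adjusted p = 0.00061, 0.00194 and 0.00149, limma). *Mxd1* was at 121 and 162 in fasted controls and 47.4 to 71.5 in refed ones, and at 119 and 136 against 57.9 to 81.8 under the MED13-LKO label. The lowest fasted value was thus above the highest refed one.

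Between genotypes 3 of the 11 fell and 1 rose, beside 13.2% and 12.1% of all genes, whereas with equal library sums 2 fell (*Mycn* and *Mycl*) and 8 rose. At that scaling most of all genes tested rose as well. *Mycn*, a paralogue of *Myc*, was at 10.3 and 16.8 in fasted controls, 50.1 and 28.2 with sucrose and 7.02 and 22.1 with fructose, against 5.64 and 3.18, 2.46 and 4.62, and 1.69 and 3.67 under the MED13-LKO label. All values under the label were below all controls, though in low counts, and it fell by 2.17 (SE 0.40, adjusted p = 0.0035, limma). *Mycl*, the other paralogue, fell by 1.10, from 147 to 280 in controls to 58.6 to 121, and *Max* by 0.27, while *Mlxip* rose by 0.36 (adjusted p = 0.00448, 0.0193 and 0.0228, limma). Neither *Mycn* nor *Mycl* was called for feeding, with estimates of 0.14 and -0.0014 (adjusted p = 0.84 and 0.998, limma).

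A wider list of 138 further ribosome biogenesis genes that were found and tested was set beside the members. *Riok2*, *Exosc6* and *Slx9* were not analysed here. In refed liver 25 of the 138 rose and 5 fell, which is 18.1% and 3.62% beside the 10.7% and 11.0% of all genes, and the median was 0.16 (53 and 2, with a median of 0.27, with equal library sums). The largest rises were those of *Ppan*, a 60S assembly factor (0.73), *Dhx37*, the helicase of the processome (0.72), and *Mphosph6*, an exosome cofactor (0.72), with adjusted p = 0.0162, 0.000572 and 0.0253 (limma). The largest falls were those of *Nop53*, a 60S factor (-0.60), *Rcl1*, a processome protein (-0.54), and *Rpp40*, a subunit of RNase MRP (-0.36), with adjusted p = 0.000546, 0.00345 and 0.0239 (limma). The count of 30 calls was 12 without replicate 2 of the fasted controls and 14 without replicate 2 of the fasted group labelled MED13-LKO.

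*Dhx37* was at 124 and 117 in fasted controls and 202 to 260 in refed ones, and at 142 and 161 against 213 to 220 under the MED13-LKO label. *Ppan* was at 165 and 147 in fasted controls, 251 and 211 with sucrose, and 482 and 221 with fructose, so that 1 library, replicate 1 of the fructose-fed controls, held its highest value.

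Between genotypes 19 of the 138 fell and 3 rose, which is 13.8% and 2.17% beside the 13.2% and 12.1% of all genes, with a median of -0.10. The share that fell was thus near that of all genes, and with equal library sums 1 fell (*Riok3*) and 68 rose, with a median of 0.22 against 0.32 over all genes. The largest falls were those of *Riok3*, a kinase of the pre-40S particle (-0.55), *Dhx33*, a helicase (-0.49), and *Mrto4*, a 60S assembly factor (-0.43), with adjusted p = 0.00182, 0.00632 and 0.0214 (limma). *Ttf1*, the terminator factor of RNA polymerase I (0.50), *Ddx52* (0.36) and *Tbl3* (0.34), both of the processome, rose (adjusted p = 0.0368, 0.00335 and 0.03, limma). *Riok3* was at 1040 to 1205 in controls and 585 to 902 under the MED13-LKO label, with no overlap. The count of 22 calls was 33 without replicate 2 of the fructose-fed controls, and 10 to 14 without any 1 of 6 libraries (replicate 1 of the fasted controls, replicate 2 of the sucrose-fed controls, and replicate 2 of the fasted, both of the sucrose and replicate 1 of the fructose group labelled MED13-LKO).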

How the data were processed

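Liver RNA-seq libraries were grouped by their sample titles. Per the labels and the methods of the study, the authors trimmed reads with Trim Galore 0.6.5, estimated transcript counts with kallisto 0.46.0 and normalized them with DESeq2 1.24.0, and the submitters' notes name mm10. The deposited values are a signal per gene, namely normalized counts, so read totals and the precision they give are unknown and no count model was run.

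Symbols came from GENCODE annotation on GRCm38, which named 16212 of the 16346 identifiers. Genes with a mean of at least 10 were tested as log2(normalized count + 1) in limma 3.58.1 (R 4.3.3), with 1 model of 6 groups, a mean-variance trend and Benjamini-Hochberg adjustment over all 12366 genes. Genes with an adjusted p under 0.05 are called, and "rose" and "fell" refer to calls. The scale understates changes of low genes. The p-values rest on the spread between the 2 libraries of a group, pooled over all 6 groups and drawn toward that of genes of like level. Simulated data with 200 changed genes were used to test the fit. Of changes of 0.5 on the log2 scale it recovered 40.5% (feeding average), 52% (genotype average), 9.5% (sucrose in controls) and 0% (averaged interaction). Of changes of 1 it recovered 79.5%, 81%, 61% and 40%. False calls made up at most 8.02% of its calls, for sucrose in controls at a change of 2. Far more than 200 genes were called in the averages of the real data, where the adjustment is thus less strict. The recovered shares therefore do not give the power of those averages. Other settings were pseudocounts of 0.1 and 10, no filter, scaling to the same 75th percentile, a block for the replicate number, only the groups compared, each library left out and, chosen after seeing the data, scaling to equal library sums.

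The members, the role groups, the wider, MYC and marker lists were chosen with earlier results of these data known. Values per library are given for *Myc*, *Fbl*, *Ncl*, *Npm1*, *Polr1a* and *Polr1b*, for the 8 largest called changes with feeding and the 4 largest with genotype, and for members that lead or break a role. For the wider list the 3 largest calls in each direction are named. Shared sequence was counted over all 31-base stretches of a gene's transcripts, as the percent that another gene also holds. Promoter windows are from RefSeq (GRCm38.p6). Python 3.11.15, pandas 2.3.3, NumPy 2.4.6 and matplotlib 3.10.9 were used.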

Additional observations from a re-analysis of the deposited data

How the results depend on the processing

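Counts of members called in both averages stayed within 1.5 times of 10 under every setting other than leaving out a library (14 and 8 with equal 75th percentiles for feeding and genotype), except for 23 for feeding with equal library sums. A like count did not mean like calls for genotype with equal library sums. *Gnl3* alone fell there and the other calls were rises, whereas all calls as deposited were falls. Single comparisons rest on few calls. With only the groups compared, the counts were 0 for fructose in controls, 0 for fructose and 1 for sucrose under the MED13-LKO label, and 0 for genotype in fasted and in fructose-fed mice. With no filter on low values they were 1 for fructose in controls and 1 for genotype with fructose, and with equal 75th percentiles 4 for fructose under the MED13-LKO label. Leaving out each library, with the lone library of its group taken to vary like the other groups, gave 0 to 6 calls for sucrose and 0 to 15 for fructose in controls, 0 to 3 and 0 to 8 under the MED13-LKO label, and 6 to 22 for the feeding average. For genotype it gave 0 to 2 in fasted, 0 to 1 in sucrose-fed and 0 to 9 in fructose-fed mice and 6 to 18 on average. It gave 0 to 1 for fructose against sucrose in controls and 0 to 0 under the MED13-LKO label and for the 3 interactions. With equal library sums, chosen after seeing the data, the counts were 7 for sucrose and 7 for fructose in controls, 2 and 7 under the MED13-LKO label, and 3, 1 and 5 for genotype in fasted, sucrose-fed and fructose-fed mice. No share of all genes stands beside these counts, so they are not read as a trait of the members. The genotype average turned to above 0 for *Polr1b* (0.1298), *Ncl* (0.1967), *Npm1* (0.0688), *Fbl* (0.0949), *Nhp2* (0.0259), *Utp18* (0.086), *Pno1* (0.0929), *Nob1* (0.0719) and *Bop1* (0.0979). These turns come with the scaling itself, which moved the median of all genes from 0.01 to 0.32. The feeding difference of *Polr1a* ran from -0.08 to 0.12 (-0.0767, -0.062, -0.0332, -0.0269 and -0.0056 in the 5 fits below 0).

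Deviations of libraries with the same replicate number in their titles correlated by -0.142 to 0.078 between groups, so no pairing by that number was seen over all genes together. The submitters' column names start at a different number in refed than in fasted groups. The check therefore could not show a pairing by those numbers between fasted and refed mice. A pairing that touches few genes would not be seen in such a correlation. A block for the replicate number gave counts of 1 for sucrose and 1 for fructose in controls, 1 for genotype with sucrose, and 10 and 9 for the averages. *Myc* was then not called in the feeding average, with sucrose in controls or in the genotype average (adjusted p = 0.0574, 0.0526 and 0.0594, limma), *Rrp1b* was not called in the feeding average and *Bop1* not in the genotype average (adjusted p = 0.0604 and 0.0513, limma), and *Ltv1* and *Wdr12* (feeding) and *Ddx21* (genotype) were. With the numbers of the fructose group labelled MED13-LKO crossed, a choice made after seeing the data, 2 members were called for genotype with fructose. Over 36 single values, 33 of 228 settings that keep all libraries lost a call, 2 gained one and 9 reversed one, all 9 with equal library sums, and the cause of the losses was not tested. Depth is unknown, and with 2 libraries per group small differences in single comparisons cannot be seen.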
